A study of Mus musculus with 11 samples.

Results

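The genes described here are 40 genes of the G2/M phases, when a cell prepares for division and divides, followed over all 11 arrays of a study of reprogramming transgenes in mouse embryonic fibroblasts (MEFs). They are a list of names known for a part in cell division, matched to probe sets by gene symbol. Of the 40, 39 were measured here, out of 19938 genes in all. Ccnb1, the cyclin B partner of Cdk1, has no probe set with a single gene symbol and was not analysed here. Where a gene had several probe sets, the one with the highest mean was used.

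The series asked how the design of the construct, and the form of the factor Klf4 in particular, affects cells on the way to induced pluripotent stem cells. All cells were male MEFs of 13.5 dpc F1 embryos with the genotype ROSA-rtTA; Nanog-GFP, so controls and reprogramming cells alike carried the doxycycline-dependent transactivator and a reporter of the pluripotency gene Nanog. They received a PB-TAC piggyBac transposon, which a transposase (pCyL43) inserts into the genome, and after 24 hr they were put in embryonic stem cell medium with doxycycline at 1 ug per mL, which turns on the transgene and, with it, the mCherry fluorescent reporter. A group of 8 transposons carried polycistronic cassettes, in which several factors are read from a single transcript (EB-C5, MKOS, OKMS, OK+9MS, OSKM, OKN-HAMS, STEMCCA and WTSI). Another 2 carried Klf4 alone, Klf4S (titled Klf4) and Klf4L (titled Klf4+9), and 1 carried lacZ, a bacterial gene with no role in reprogramming. Cells of the cassettes and of Klf4 alone were sorted for mCherry on day 6, whereas lacZ cells were collected on day 2 without that sort. Where lacZ is compared with the others, the effects of day, sort and transgene cannot be told apart. There was 1 array per construct, so the constructs serve as replicates of their group. The p-values measure the spread between constructs, not between repeated cultures.

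Mitosis is driven by the kinase Cdk1 with its A and B cyclins, which rise before division and are destroyed when the anaphase-promoting complex is switched on. Polo and Aurora kinases, kinesin motors and the kinetochore, the protein plate that ties a chromosome to spindle fibres, then align and part the chromosomes, and a contractile ring splits the cell. Most genes of this machinery are transcribed mostly in G2 and M, under the MuvB complex with B-Myb and Foxm1, and are silent in resting cells. Their RNA is therefore widely used to gauge how many cells of a culture divide. In RNA pooled from many cells, sorted or not, fewer dividing cells and less RNA per cell cannot be told apart.

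Promoters of G2/M genes are known for a short element, TTTGAA, the cell cycle homology region through which MuvB complexes bind, and for CCAAT boxes, bound by the factor NF-Y. RefSeq promoters (build GRCm38.p6, 250 bases before to 50 after the start of the gene) were given for 34 of the 40 genes. Ccna2, Aurkb, Kif20a, Tpx2, Incenp and Foxm1 were not matched. The 6 printed here are those with the largest difference between cassettes and Klf4 alone among the genes with TTTGAA upstream of the start. They are the 120 bases just before the start, on the strand of the gene, and capitals mark TTTGAA or CCAAT on either strand (TTCAAA and ATTGG when on the other strand).
Ect2, chr3:27153879-27153998, minus strand: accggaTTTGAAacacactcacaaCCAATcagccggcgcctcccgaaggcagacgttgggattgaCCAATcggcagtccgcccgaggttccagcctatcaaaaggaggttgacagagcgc
Kif2c, chr4:117178773-117178892, minus strand: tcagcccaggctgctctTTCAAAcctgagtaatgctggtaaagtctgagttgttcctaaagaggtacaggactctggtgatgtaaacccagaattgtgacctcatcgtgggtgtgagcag
Cdc20, chr4:118437344-118437463, minus strand: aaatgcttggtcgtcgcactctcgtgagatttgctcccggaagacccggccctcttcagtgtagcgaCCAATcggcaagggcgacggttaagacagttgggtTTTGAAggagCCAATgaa
Kif11, chr19:37376262-37376381, plus strand: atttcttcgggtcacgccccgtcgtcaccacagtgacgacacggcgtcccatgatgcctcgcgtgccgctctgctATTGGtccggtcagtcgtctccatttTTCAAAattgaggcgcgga
Espl1, chr15:102296173-102296292, plus strand: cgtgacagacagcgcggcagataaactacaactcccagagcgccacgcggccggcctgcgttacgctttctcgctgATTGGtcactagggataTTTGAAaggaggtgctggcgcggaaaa
Mki67, chr7:135716380-135716499, minus strand: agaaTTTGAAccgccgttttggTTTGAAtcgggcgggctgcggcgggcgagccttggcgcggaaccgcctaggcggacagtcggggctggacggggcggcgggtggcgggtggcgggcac

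TTTGAA on either strand lay in the promoters of 26 of the 34 genes (76.5%), against 17.3% of the 15614 genes of the array with a promoter. By promoter, the element lay in 77.8% of the 36 promoters of these genes and in 17.9% of all 32851 promoters of the same length. CCAAT on either strand lay in 26 of the 34 genes (76.5%), against 41.7% of the array's genes, and both motifs together in 23 (67.6%), against 6.89%. By promoter, CCAAT lay in 77.8% against 37.4% of all promoters and both in 69.4% against 6.95%. The motifs were searched independently of each other. The gene promoters were also richer in G and C, with a median of 58.7% against 52.7% over all promoters and 57.3% over the genes of the array. In the promoters shown, TTTGAA stood close to the start in Cdc20 (18 bases before it), Kif11 (19) and Espl1 (27), and farther from it in Kif2c (103), Ect2 (114) and Mki67, whose first of 2 copies began 116 bases before. Ect2 has a second promoter, not shown. Of the 26 genes with the element, 12 had a copy upstream and 14 only at or after the start. These matches describe letters, not bound sites. The 26 genes with the element had a median log2 difference between cassettes and Klf4 alone of 1.83, and the 7 measured genes without it had 1.93.

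The values are log2 signals, on which a difference of 1 is 2-fold. Array medians over all probe sets ran from 7.188 to 7.269. All 39 genes had a mean above 6, a level near the array's low end; the lowest single readings were 6.21 (Depdc1a in Klf4L) and 6.31 (Ttk in Klf4S). As a check of the labelled cell type, 14 of 14 fibroblast markers read 6 or more on every array, with an array mean from 10.60 to 11.49 in the cassettes, 11.84 in both Klf4 arrays and 10.74 in lacZ. Of markers of other cells, 4 to 5 of 8 macrophage and blood genes read 6 or more in the cassettes. So did 6 to 7 of 7 endothelial genes and 4 of 5 nerve and muscle precursor genes. This cut says little by itself, since 15748 of all 19938 genes had a mean of 6 or more. The presence of a cell type cannot be read from such counts. The array means of the fibroblast list lay above all array medians, whereas those of the macrophage and endothelial lists lay below them. The array mean of the macrophage list ran from 6.49 to 7.03 in the cassettes and read 6.32 and 6.39 in the Klf4 arrays and 6.32 in lacZ, and that of the endothelial list ran from 6.70 to 6.92, against 6.57 and 6.63 in the Klf4 arrays and 6.56 in lacZ.

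Both Klf4 arrays lay far below the rest, and MKOS lay between them and the other cassettes. The median over the 39 genes of the difference from lacZ was 0.27 in OKMS, 0.23 in EB-C5, -0.03 in OKN-HAMS, -0.22 in STEMCCA, -0.24 in OK+9MS, -0.27 in WTSI and -0.30 in OSKM. MKOS lay lower, at -0.93, and Klf4S (-2.05) and Klf4L (-2.08) lowest. Over all genes these medians lay between -0.04 and 0.01. The SD of this value over the 8 cassettes, MKOS among them, was 0.38, which mixes differences between constructs with those between cultures and arrays. With 1 array each, lacZ and the 7 cassettes other than MKOS cannot be ranked firmly.

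**Figure D1:**
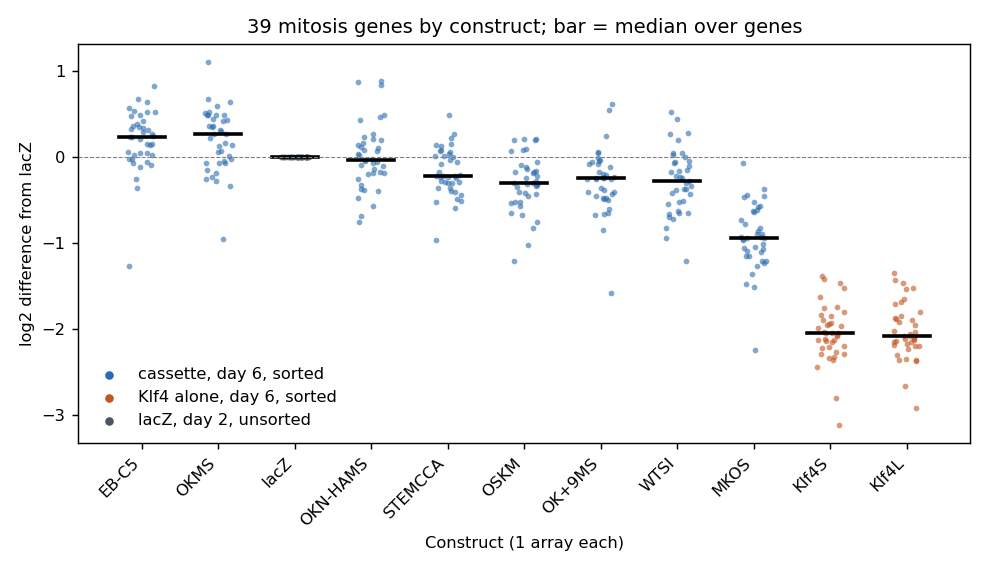
Log2 difference from lacZ (vertical axis) of each of the 39 mitosis genes (points) on each array (horizontal axis), with the median over genes as a bar. The 7 upper cassettes have medians from -0.30 to 0.27, MKOS lies at -0.93, and both Klf4 arrays lie near -2.05.

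Ordered by their median signal, the arrays ran EB-C5 (10.46), OKMS (10.41), lacZ (10.33), OKN-HAMS (10.31), STEMCCA (10.12), OSKM (10.07), OK+9MS (10.04), WTSI (9.998), MKOS (9.32), Klf4S (8.07) and Klf4L (8.01). Most neighbours in this order overlapped gene by gene. EB-C5 exceeded OKMS in 21 of 39 genes, lacZ exceeded OKN-HAMS in 21, OSKM exceeded OK+9MS in 16 and OK+9MS exceeded WTSI in 20. OKMS exceeded lacZ, OKN-HAMS exceeded STEMCCA and STEMCCA exceeded OSKM in 27 genes each, by medians of 0.27, 0.19 and 0.15. The other gaps were wider: WTSI exceeded MKOS in 38 of 39 genes by a median of 0.68 (quartiles 0.46 and 0.82), and MKOS exceeded Klf4S in 39 of 39 by 1.10 (quartiles 0.95 and 1.29). Klf4S and Klf4L differed by a median of 0.02, with Klf4S higher in 17 genes.

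Every cassette read above lacZ in some of these genes except MKOS. EB-C5 was above lacZ in 30 of 39, OKMS in 27, OKN-HAMS in 18, STEMCCA in 13, WTSI in 8, OSKM in 7 and OK+9MS in 5. MKOS, Klf4S and Klf4L were above it in 0. Both Klf4 arrays read at least 2-fold below lacZ in 39 of 39 genes; over all genes the share was 2.01% for Klf4S and 1.98% for Klf4L. MKOS read at least 2-fold below lacZ in 16 of 39, against 1.67% of all genes.

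**Figure D2:**
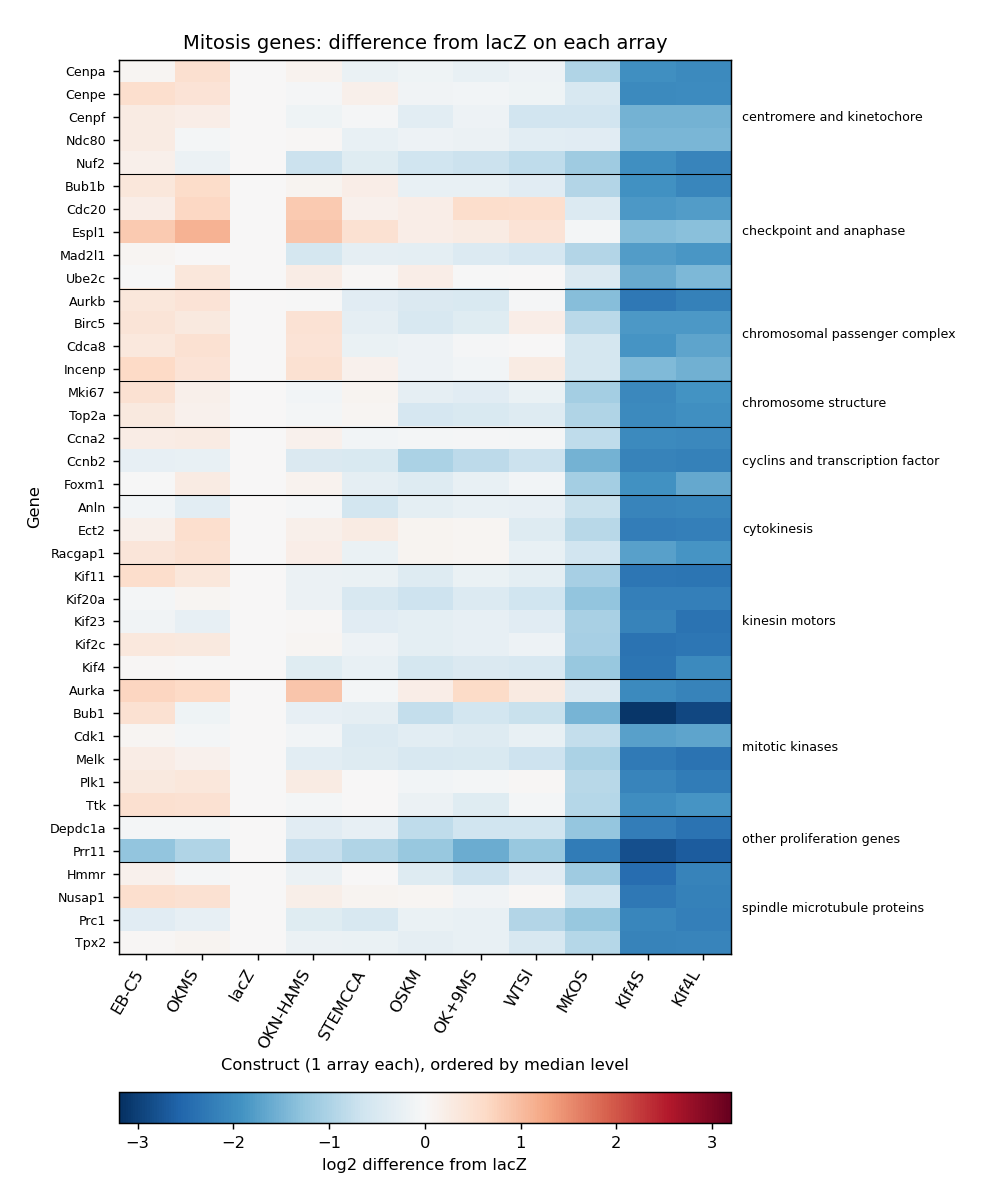
Log2 difference from lacZ (colour) of the 39 mitosis genes (rows, grouped by role) on the 11 arrays (columns, ordered by median level). Both Klf4 columns are dark blue in every row, the MKOS column lies below 0 in every row, and the row of Prr11 is blue in every cassette.

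The cassettes were compared with Klf4 alone at the same day and sort, which asks what the other factors of a cassette add. All 39 genes were higher in the cassettes (limma adjusted p from 0.0007216 to 0.01916, n = 8 against n = 2), by a median of 1.84 on the log2 scale, against -0.02 over all genes. Of all genes, 6.35% were called higher at an adjusted p under 0.05. In all 39 genes the lowest of the 8 cassettes lay above the higher Klf4 array, as it did in 12.3% of all genes. The size ran from 2.50-fold in Ndc80 to 5.82-fold in Bub1. The fibroblast markers moved the other way: all 14 read lower in the cassettes, from -1.19 to -0.16 with a median of -0.96. Of these, Col3a1 (-1.19), Col1a2 (-0.99), Col5a1 (-0.96) and Col6a1 (-0.58) were called lower, against 1618 of all 19938 genes. Of the 7 endothelial markers 1, Tek, was called higher (1.65), while the list had a median of -0.03. Its other genes ran from -0.21 (Kdr) to 0.16 (Cldn5), with none called. Of the 8 macrophage and blood markers none was called, but Laptm5 read from 7.38 (WTSI) to 10.92 (OKN-HAMS) in the cassettes and 6.92 and 6.87 with Klf4S and Klf4L (difference 2.45, limma adjusted p = 0.1239). The defining blood marker Ptprc read at most 5.79 on any array. The part of these markers in the result was not tested.

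With Klf4S left out the differences of the 39 genes ran from 1.32 to 2.48 with a median of 1.82. With Klf4L left out they ran from 1.32 to 2.64 with a median of 1.85. Each of these fits kept a single array of Klf4 alone. Far fewer genes then passed the test, among the 39 as over all genes. Over all arrays left out in turn, the median difference stayed between 1.78 and 1.93.

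**Figure D3:**
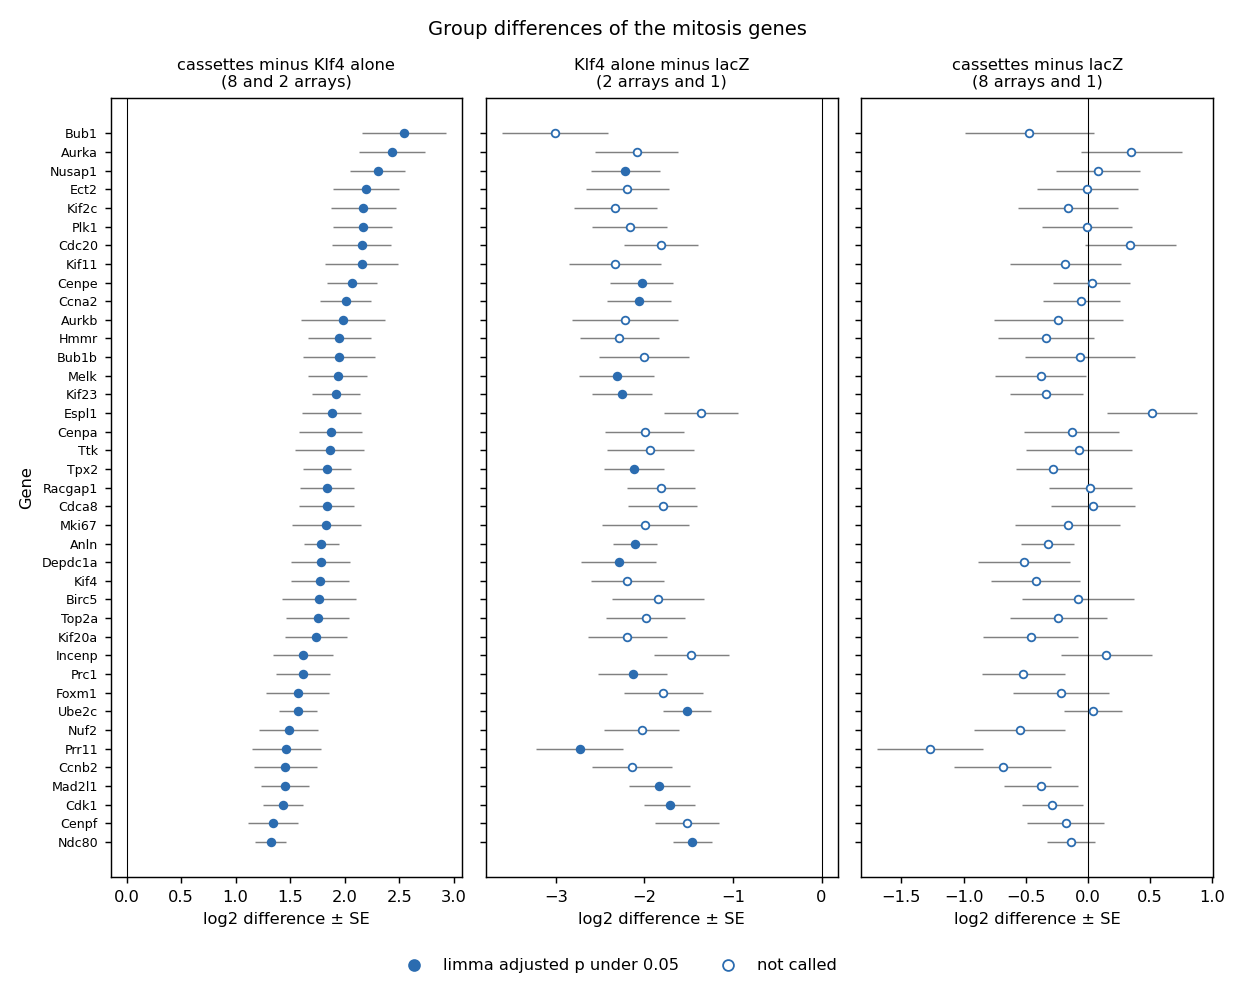
Log2 difference ± SE of each mitosis gene (rows, ordered by the first panel) between the groups, from the limma fit over all 11 arrays; filled points have an adjusted p under 0.05. All 39 genes lie above 0 in the first panel, all 39 lie below 0 in the second with 14 filled, and the third panel straddles 0 with none filled.

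Among the 6 mitotic kinases the median difference between cassettes and Klf4 alone was 2.05. Bub1, a kinase that guards the attachment of chromosomes to the spindle, read from 8.94 in MKOS to 10.90 in EB-C5 with a median of 9.97 in the cassettes, 7.31 and 7.50 with Klf4S and Klf4L and 10.42 with lacZ. The cassettes and the Klf4 arrays did not overlap, and the difference was 2.54 ± 0.39 (SE, limma adjusted p = 0.005882). Aurka, the Aurora kinase of the spindle poles, read from 9.66 (MKOS) to 11.00 (OKN-HAMS) with a median of 10.56, against 8.07 and 7.99 with Klf4S and Klf4L and 10.11 with lacZ. It was higher in the cassettes by 2.44 ± 0.30 (limma adjusted p = 0.002818), and 6 of the 8 cassettes lay above lacZ. Cdk1, the kinase that starts mitosis, had one of the smallest differences, 1.43 ± 0.18 (limma adjusted p = 0.003151), with cassettes from 10.97 to 11.81 (median 11.45), Klf4S at 9.996, Klf4L at 10.06 and lacZ at 11.74. Plk1, the Polo kinase, differed by 2.16, Melk by 1.93 and Ttk, a spindle checkpoint kinase, by 1.86.

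The cyclins and the transcription factor Foxm1 differed by 1.45 to 2.01. Ccna2, the cyclin A that serves both replication and entry into mitosis, read from 10.91 (MKOS) to 11.998 (OKMS) in the cassettes with a median of 11.67, 9.68 and 9.65 with Klf4S and Klf4L and 11.72 with lacZ. The other 7 cassettes began at 11.64 (STEMCCA), so MKOS stood by itself between them and Klf4 alone. Ccnb2, a B-type cyclin, read from 10.40 (MKOS) to 11.67 (OKMS) with a median of 11.32, 9.77 and 9.75 with Klf4S and Klf4L and 11.90 with lacZ, so that lacZ was above all 8 cassettes. Foxm1, which activates G2/M genes, read from 8.80 to 10.17 with a median of 9.74 in the cassettes, 7.97 and 8.25 with Klf4S and Klf4L and 9.90 with lacZ.

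The checkpoint and anaphase genes had a median difference of 1.88, from 1.45 in Mad2l1 to 2.16 in Cdc20. Mad2l1 and Bub1b encode checkpoint proteins that hold back Cdc20, the activator of the anaphase-promoting complex. Ube2c is the ubiquitin-conjugating enzyme of that complex, and Espl1 is separase, the protease that cuts the cohesin rings between sister chromatids. Cdc20 read from 9.89 (MKOS) to 11.17 (OKN-HAMS) with a median of 10.70 in the cassettes, 8.50 and 8.54 with Klf4S and Klf4L and 10.33 with lacZ. Espl1 read from 8.33 (MKOS) to 9.51 (OKMS) with a median of 8.87, 7.02 and 7.06 with Klf4S and Klf4L and 8.40 with lacZ. In both genes 7 of the 8 cassettes lay above lacZ, with MKOS below it.

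The chromosomal passenger complex, in which Incenp, Birc5 (survivin) and Cdca8 (borealin) place the kinase Aurkb on centromeres, differed by 1.62 (Incenp) to 1.99 (Aurkb). Aurkb varied most among the 4 from cassette to cassette, from 9.65 in MKOS to 11.45 in OKMS (SD 0.57), with a median of 10.80, against 8.72 and 8.84 with Klf4S and Klf4L and 11.01 with lacZ.

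Kinetochore and centromere genes included the smallest differences. Ndc80, a subunit of the complex that grips microtubules, read from 8.21 (MKOS) to 8.84 (EB-C5) with a median of 8.41 in the cassettes, 7.13 in both Klf4 arrays and 8.59 in lacZ. The difference was 1.32 ± 0.14 (limma adjusted p = 0.001409). Cenpf, a large coiled-coil protein of the outer kinetochore, differed by 1.34 ± 0.23 (limma adjusted p = 0.009299), with cassettes from 7.96 to 8.85 (median 8.43), 7.06 in both Klf4 arrays and 8.58 in lacZ. Nuf2, the partner of Ndc80, differed by 1.48, the centromeric histone Cenpa by 1.87 and the kinetochore motor Cenpe by 2.06.

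The 5 kinesin motors differed by 1.73 to 2.17. Kif2c, which takes apart microtubules at their ends, read from 8.57 (MKOS) to 9.96 (EB-C5) with a median of 9.47 in the cassettes, 7.28 and 7.33 with Klf4S and Klf4L and 9.63 with lacZ. The difference was 2.17 ± 0.30 (limma adjusted p = 0.004096). Kif11, which pushes the spindle poles apart, differed by 2.15, Kif23 and Kif20a of the cleavage midzone by 1.92 and 1.73, and the chromosome-bound motor Kif4 by 1.77.

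Among proteins that bind spindle microtubules, Nusap1 read from 9.52 (MKOS) to 10.68 (EB-C5) with a median of 10.23, against 7.87 and 8.0003 with Klf4S and Klf4L and 10.15 with lacZ. Its difference was 2.30 ± 0.25 (limma adjusted p = 0.001549). Hmmr differed by 1.95, the Aurka activator Tpx2 by 1.84 and Prc1, which bundles microtubules between the parting chromosomes, by 1.62. Of the cytokinesis genes, Ect2, which switches on the GTPase of the contractile ring, differed by 2.19 ± 0.30 (limma adjusted p = 0.004096). It read from 9.84 (MKOS) to 11.26 (OKMS) with a median of 10.86 in the cassettes, 8.53 and 8.55 with Klf4S and Klf4L and 10.73 with lacZ. Racgap1, which works with Ect2 and Kif23, differed by 1.84, and the ring scaffold Anln by 1.78. Mki67, the proliferation marker Ki-67 that coats mitotic chromosomes, differed by 1.83, and Top2a, the topoisomerase that untangles DNA, by 1.75. Prr11 and Depdc1a, linked to proliferation, differed by 1.46 and 1.78.

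Klf4 alone was compared with lacZ to see where the transgene that lacks the other factors stood against the control. All 39 genes read lower in Klf4 alone, by a median of -2.06 against -0.0001 over all genes. Of these, 14 passed the test (Cdk1, Ccna2, Cenpe, Kif23, Ube2c, Tpx2, Nusap1, Prc1, Ndc80, Melk, Prr11, Depdc1a, Mad2l1 and Anln), against 0.476% of all genes called lower (limma, n = 2 against n = 1). The other 25 had unadjusted p-values under 0.05 and adjusted ones from 0.05116 to 0.2105. Over all 19938 genes, 2289 had an unadjusted p under 0.05 by limma, in either direction. The single lacZ array has no replicate, so its spread is taken to equal that of the cassettes and Klf4 alone.

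Prr11 had the largest difference among the called genes and fell by 2.73 ± 0.49 (limma adjusted p = 0.04255), from 11.36 in lacZ to 8.56 in Klf4S and 8.70 in Klf4L. Melk fell by 2.31 ± 0.43 (adjusted p = 0.04645), from 9.46 to 7.20 and 7.10, and Depdc1a fell by 2.29 ± 0.42 (adjusted p = 0.04761), from 8.58 to 6.37 and 6.21. Both Klf4 arrays lay far below lacZ in each. Kif23 fell by 2.25 ± 0.34 (adjusted p = 0.022) and Nusap1 fell by 2.22 ± 0.39 (adjusted p = 0.03826). The largest difference of all 39, -3.01 ± 0.60 in Bub1, did not pass (adjusted p = 0.06017). At the small end stood Espl1 (-1.36, adjusted p = 0.2105), Ndc80, which fell by 1.46 (adjusted p = 0.02133), and Incenp (-1.47, adjusted p = 0.1761).

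The count of 14 depended on which arrays gave the shared spread. It was 3 without OSKM or OK+9MS, 5 without STEMCCA or WTSI, 6 without OKN-HAMS and 35 without MKOS. Calls over all 19938 genes, in either direction, were 149 in the main fit. They were 100, 93, 152, 118, 131 and 268 without OSKM, OK+9MS, STEMCCA, WTSI, OKN-HAMS and MKOS. Without Klf4S or Klf4L, calls fell among the 39 and over all genes. The differences then ran from -2.92 to -1.34 and from -3.11 to -1.38. Their medians were -2.08 without Klf4S and -2.05 without Klf4L. Leaving out a cassette cannot change this difference, and lacZ was never left out. With quantile normalization the median was -2.02 and with centred arrays -2.09. The count was 7 with the arrays quantile normalized again, where 137 of all genes were called. With the 3 arrays of the comparison alone it was 0, as it was over all 19938 genes. All 39 kept an unadjusted p under 0.05 there. The share over all genes was not counted in that fit, so nothing particular to the 39 can be read from this.

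The cassettes were then set against lacZ. None of the 39 genes was called (limma, lowest adjusted p = 0.186, n = 8 against n = 1). Of all genes, 2.05% were called in either direction. Among the 39, 1, Prr11, had an unadjusted p under 0.05, against 3087 of all 19938 genes. The median difference was -0.18, with 9 genes higher and 30 lower. The ends were Prr11 at -1.27 ± 0.43 and Espl1 at 0.52 ± 0.36 (adjusted p = 0.5783). The smallest differences were those of Plk1 (-0.0043), Ect2 (-0.0042) and Racgap1 (0.02) with an SE of 0.36, 0.41 and 0.34. All 8 cassettes lay below lacZ in 5 of 39 genes (Ccnb2, Prc1, Prr11, Depdc1a and Anln), against 20.8% of all genes. At least 6 of the 8 lay above it in 5 of 39 genes (Aurka, Cdc20, Nusap1, Espl1 and Ect2), against 30.6% of all genes, and all 8 in 0 of 39, against 13.3%. Of the 7 endothelial markers, Tek was called higher in the cassettes than in lacZ (3.33) and Kdr lower (-0.52). The list had a median of 0.05, and its other genes ran from -1.23 (Emcn) to 0.10 (Tie1), with none called.

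MKOS was the lowest of the 8 cassettes in 38 of 39 genes, against 16.4% of all genes. The exception was Cenpf, which read 7.957 in WTSI and 7.960 in MKOS. Against the median of the other 7 cassettes MKOS lay lower in 39 of 39 genes by a median of -0.84, from -1.31 in Aurkb and -1.18 in Bub1 to -0.20 in Ndc80, against -0.0018 over all genes. It was at least 2-fold lower in 9 of 39, against 0.492% of all genes. MKOS still read above the mean of the Klf4 arrays in every gene, by 0.49 in Prr11 to 1.63 in Aurka. The fibroblast markers of MKOS had a median of 0.50 above lacZ, below only STEMCCA (0.77) among the cassettes. The next cassette, OK+9MS, read 0.22, the lowest, OKN-HAMS, -0.48, and Klf4S and Klf4L 1.00 and 0.96. The Myc signal of MKOS was 10.64, above only EB-C5 (9.86) and STEMCCA (10.49) among the cassettes, which reached 10.91 in OK+9MS. Its Pou5f1 signal was 12.29, above only STEMCCA (11.89) among the cassettes. With 1 array, a trait of the construct and a trait of that culture or array cannot be told apart.

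At the upper end, EB-C5 was the highest cassette in 17 genes and OKMS in 15, so that 1 of them was highest in 32 of 39, against 31.8% of all genes. OKN-HAMS was highest in 6 (among them Aurka, Cdc20, Birc5 and Kif23) and OSKM in Prc1. EB-C5 lay above the median of the other 7 in 36 genes by a median of 0.44, up to 1.08 in Bub1. OKMS did so in 38 genes by 0.45, up to 0.84 in Bub1b, and OKN-HAMS in 35 genes by 0.24. The Myc signal was 9.86 in EB-C5, the lowest of the 8 cassettes, and 10.76 in OKMS. In lacZ it read 9.54, in Klf4S 9.05 and in Klf4L 8.65. Transgene and endogenous Myc are not separated on these arrays, and a part of Myc in the order was not tested.

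The constructs that differ in the form of Klf4 were compared in pairs, with 1 array each and no test. OK+9MS read below OKMS in 36 of 39 genes by a median of -0.50, from -0.92 in Aurkb to 0.09 in Anln, against 0.01 over all genes. OK+9MS was 2-fold or more below OKMS in 0 of 39, against 0.878% of all genes. Klf4L against Klf4S gave a median of 0.02, from -0.21 in Kif23 to 0.29 in Hmmr, with 22 genes higher and 17 lower. In this pair none of the 19938 genes was 2-fold apart in either direction. For scale, the SD of the median difference from lacZ over the 8 cassettes was 0.38, a spread that includes differences between constructs and the low MKOS.

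The 39 genes moved together. Each was centred on its own mean and set against the median centred profile of the other 38. Pearson's r over the 11 arrays ran from 0.88 to 0.999 with a median of 0.98, and 36 of 39 genes had 0.95 or more. These points share the same 11 arrays and their group structure. Over the 8 cassettes alone r ran from 0.70 to 0.998 with a median of 0.93. Kif2c followed the shared profile most closely in both sets. The slope, the size of a gene's swings relative to the shared profile, ran from 0.68 in Ndc80 to 1.43 in Bub1. Across genes the difference between cassettes and Klf4 alone showed little relation to the mean level (Pearson's r 0.096, Spearman's rho 0.065 over 39 genes, which are not independent replicates).

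**Figure D4:**
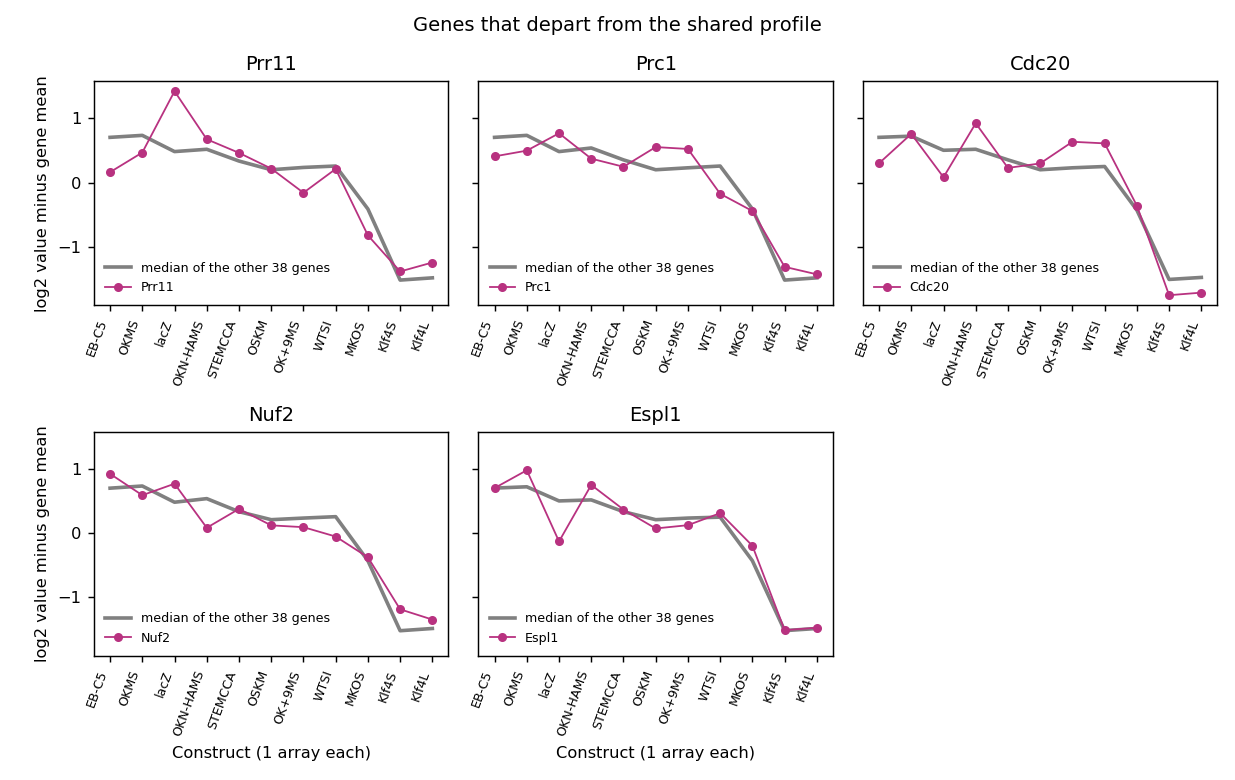
Log2 value minus the gene's own mean (vertical axis) on the 11 arrays (horizontal axis, ordered by median level) for the 5 genes with the lowest correlation to the shared profile; the grey line is the median of the other 38 genes. Prr11 peaks at lacZ, while Cdc20 and Espl1 dip there.

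Of the 5 genes that departed most from the shared profile, Prr11, Espl1 and Cdc20 did so most on the lacZ array, Prc1 in WTSI and Nuf2 in OKN-HAMS. Prr11 (r 0.88), centred on its mean, read 0.94 above the shared profile in lacZ and lay at -0.54 from it in EB-C5. The former was the one deviation of 0.75 or more in any gene. It read 11.36 in lacZ against 9.12 (MKOS) to 10.62 (OKN-HAMS) in the cassettes. Espl1 (r 0.95) and Cdc20 (r 0.95) went the other way in lacZ, by -0.63 and -0.42. Cdc20 was also 0.40 above the shared profile in OK+9MS and OKN-HAMS and -0.40 from it in EB-C5, where 17 of the 39 genes were at their highest among the cassettes. Prc1 (r 0.94) lay at -0.43 in WTSI and 0.35 in OSKM, the array on which it was highest of all cassettes (9.83). Nuf2 (r 0.95) lay at -0.45 in OKN-HAMS, where it read 8.83 against 9.67 in EB-C5 and 9.51 in lacZ. Bub1 kept the shape of the shared profile (r 0.99) with wider swings, at -0.71 in Klf4S and 0.67 in EB-C5.

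Other genes of the same processes were read from lists that hold none of the 39. Of 81 further mitosis genes 68 were called higher in the cassettes than in Klf4 alone, against 6.35% of all genes, and 0 were called lower; the differences ran from -0.09 to 2.36 with a median of 1.37. Cdca5 (2.36), which keeps cohesin on chromatin, the chromatin protein Hmgb2 (2.28) and the cohesin protectors Sgo2a (2.23) and Sgo1 (2.18) had the largest differences. Between Klf4 alone and lacZ all 81 read lower, from -2.33 to -0.06 with a median of -1.67, and 9 passed the test, against 0.476% of all genes, among them Dlgap5 (-2.12), the condensin subunit Smc2 (-1.86), Cenpi (-1.84) and Ckap2l (-1.75). Of 32 DNA replication genes 28 read higher in cassettes than under Klf4 alone by the test (median over the list 1.44), led by Mcm10 (2.75), Uhrf1 (2.39), Mcm5 (2.31) and Mcm6 (2.31), against the same 6.35% of all genes. In Klf4 alone all 32 read lower than in lacZ, from -2.15 to -0.49 with a median of -1.41, and 1, Gins2 (-1.43), passed the test. Neither list had a gene called between cassettes and lacZ.

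Regulators and partners of the 39 genes moved less uniformly. Of the 6 genes of the MuvB complex and B-Myb, 2 were higher in the cassettes than in Klf4 alone, Mybl2, which encodes B-Myb (3.02 ± 0.36, limma adjusted p = 0.002258), and the MuvB subunit Lin9 (1.04 ± 0.17, limma adjusted p = 0.007162). The list had a median of 0.40. The 13 listed subunits and activators of the anaphase-promoting complex had a median of -0.01 and 0 calls by limma in any of the 3 comparisons. In MKOS the further mitosis genes had a median of -0.75 against lacZ and the replication genes -0.57, below those of the other 7 cassettes.

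The genes most like the shared profile over the 11 arrays, among 2190 others with a mean of at least 6 and an SD of at least 0.5, were Ncapg (r 0.9955), Sgo1, Kif18a, Ncaph, Cdc25c, Fam83d, Kntc1, Kif18b, Rrm1 and Prim1 (r 0.9868). Of these 10, 7 are in the list of further mitosis genes, 2 in the replication list and Kntc1 in neither. Among the 50 most alike genes, 26 were further mitosis genes, 6 replication genes and 18 in no list. How many of the 2190 candidates belong to each list was not counted, so these counts have no share to be set against. Ncapg, a condensin subunit, read from 8.24 in MKOS to 9.72 in EB-C5 in the cassettes, 6.95 and 6.99 with Klf4S and Klf4L and 9.09 with lacZ.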

How the data were processed

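RNA of 11 MEF populations, all but lacZ sorted for mCherry, was measured on Affymetrix mouse gene arrays. The authors deposited log2 signals per probe set, made with RMA, per the submitters' processing notes. RMA usually corrects background, normalizes between arrays and summarizes probes, and it can understate large differences. Which version was used is not given here.

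Of 28856 probe sets, 21789 had 1 gene symbol, 1621 several and 5446 none; the former gave 19938 genes, by the probe set with the highest mean. Group means (8 cassettes, 2 Klf4 alone, 1 lacZ) were fitted in 1 model with limma 3.58.1 (R 4.3.3; lmFit, eBayes, 8 residual degrees of freedom, Benjamini-Hochberg adjusted over the 19938 genes). A gene was called where the adjusted p was under 0.05, and single arrays were described at 2-fold with no test. The fit was tested on simulated data. The genes and lists were chosen with earlier results of these data known.

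All 39 measured genes may be named, with full statistics for the 5 called genes with the largest and the 3 genes with the smallest difference per comparison and for the 5 lowest correlations. From each list up to 4 called genes, and the 10 most alike genes, are named. Alternatives were array centring, quantile normalization, a filter at a mean of 6, the mean of all probe sets and the compared arrays alone. Others were an intensity trend with a robust prior, the mean over genes and leaving out each construct except lacZ in turn.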

Additional observations from a re-analysis of the deposited data

Results flagged for a closer look

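The cassette MKOS stood apart from the other 7 in the median signal over the 39 genes, which was 9.3175 in MKOS, and in 5 single genes, where the gap between MKOS and the next cassette, as a share of the whole range of the 8, exceeded Dixon's critical value. MKOS read 10.9056 in Ccna2, 10.5134 in Plk1, 9.3175 in Kif23, 10.3386 in Ube2c and 8.5694 in Kif2c, each time as the lowest cassette. No other cassette stood apart in this way in any of the 39 genes. Chance alone flags about 1 in 20 groups, and the genes share the same 8 arrays, so the 5 genes are not independent of each other.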

How the results depend on the processing

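The limits lie in the number of arrays: each construct has 1, lacZ has 1 in all, and the deposited signals carry no measure of depth. Every median difference over the 39 genes kept its direction and moved by less than the spread between cassettes in the alternatives run. That spread, an SD of 0.38 with MKOS included, is larger than the median of -0.18 for cassettes against lacZ. For that comparison it is therefore a loose measure. With each construct except lacZ left out in turn, the median ran from 1.78 to 1.93 for cassettes against Klf4 alone. It ran from -2.08 to -2.05 for Klf4 alone against lacZ, which leaving out a cassette cannot change. For cassettes against lacZ it ran from -0.25 to -0.08, and leaving out a Klf4 array cannot change it. The genes called between cassettes and Klf4 alone ran from 5 (without Klf4L) to 39, and were 39 in every alternative that kept both Klf4 arrays. Between Klf4 alone and lacZ there were 14 calls in the main fit, against 149 over all 19938 genes in either direction. The count was 35 without MKOS (268 over all genes), 11 with centred arrays (134) and 7 with quantile normalization (137). It was 17 with the filter (141 of 15748 genes), 16 with the mean of probe sets (171) and 20 with the intensity trend (191). With the compared arrays alone, where fewer arrays give the spread, it was 0, as over all genes. All 39 genes had an unadjusted p under 0.05 there, which was not counted over all genes. Without Klf4S or Klf4L calls fell, among the 39 as over all genes. Between cassettes and lacZ no alternative gave a call by limma. Of the 39 genes 1 to 2 had an unadjusted p under 0.05, against 3087 of all 19938 genes in the main fit. The OKN-HAMS level against lacZ, -0.03, became 0.06 with quantile normalization and 0.01 with the mean over genes. Differences near 0 between cassettes and lacZ changed sign: Racgap1 was -0.012 with centred arrays and -0.046 to 0.113 with a construct left out, Ect2 was 0.072 with quantile normalization and -0.080 to 0.123 with a construct left out, and Plk1 was 0.096 with quantile normalization and -0.058 to 0.122 with a construct left out. No paired analysis was possible because the labels give the constructs no shared replicate numbers.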
